A study of Mus musculus with 15 samples.

Results

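The genes described here are 10 members of the TGF-beta, BMP and Smad system of the mouse kidney, taken by symbol from the 54532 genes of the FPKM table. They are the ligands Tgfb1, Tgfb2, Tgfb3 and Bmp7, the receptors Tgfbr1 and Tgfbr2, the signalling proteins Smad2, Smad3 and Smad4, and the inhibitor Smad7. The values come from 15 kidneys of male C57BL/6 mice acquired at 8 weeks of age and acclimatized before the diets began, 1 kidney a mouse and 5 mice a group. The C group had a normal diet. The M group, a model of chronic kidney disease (CKD), ate 0.25% adenine for 4 weeks and a standard diet in the weeks that followed. The AA group had the same adenine diet and 30 mg/kg of asiatic acid (AA), a triterpenoid of the herb Centella asiatica, by daily gavage over all 8 weeks. The C and M mice were gavaged with the vehicle of 1% DMSO in saline, which the AA mice also received, so no group was untouched. The AA mice received AA concurrently with adenine, so in AA vs. M the AA kidneys were treated from the start of the injury. No group had AA without adenine.

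TGF-beta ligands are secreted in a latent form, are released from the matrix, and bind a type II receptor (Tgfbr2), which recruits and phosphorylates a type I receptor (Tgfbr1). The type I receptor phosphorylates Smad2 and Smad3, which join Smad4, enter the nucleus and switch on genes of matrix production, while Smad7, itself a target of the pathway, blocks the type I receptor and marks it for degradation. In the kidney this system is best known as a driver of fibrosis, and BMP7, a ligand of the same family that signals through other receptors and Smads, is made by tubule cells and glomeruli and is known to oppose it. Much of this control acts on the proteins, so RNA levels do not show how active the pathway was.

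The libraries differed in ways that touch the values below. Mitochondrial genes held 53.0 to 62.5% of fragments in C, 64.0 to 86.8% in M and 69.2 to 87.2% in AA, which left 6930000 to 13600000 fragments outside the mitochondrial genome in C, 2070000 to 7130000 in M and 2230000 to 4270000 in AA. M mice 1 to 3 stood apart, with 10068 to 12222 genes above 0 and 2070000 to 2770000 such fragments, against 23040 and 25460 genes and 6470000 to 7130000 in M mice 4 and 5. M mice 2 and 3 carried Xist RNA, which female cells make, at 2.55 and 1.45 FPKM, although the mice were male per the study, and all other libraries held at most 0.119, while the Y-linked gene Eif2s3y was above 0 in all 15 libraries. No marker of the proximal tubule, the main segment of the kidney cortex, was at 0 in all libraries of a group. In single libraries some were, as Lrp2, Slc5a2, Slc22a6 and Slc13a3 in M mouse 2. The summed FPKM of the 8 markers had a median of 5928 in C, 309 in M and 448 in AA. Gapdh, a gene that every cell uses, was listed at 0 in M mouse 1 and AA mice 1 and 2, so an FPKM of 0 is given here as listed at 0.

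All 10 members were above 0 in at least 5 of the 10 libraries of every comparison and were therefore tested. Their levels were low, with group medians between 0.286 and 6.43 FPKM (fragments per kilobase of exon, scaled for sequencing depth). FPKM is a level per length, so genes can be compared on it: Tgfb1 had the highest level of the 3 TGF-beta ligands in 14 of 15 libraries, the exception being AA mouse 2, and Tgfb2 and Tgfb3 stayed at or below 1.41 FPKM in all libraries. A call, in either direction, needed an adjusted P (Benjamini-Hochberg, over all genes tested) no higher than 0.05 and a log2 fold change of 1 or more, from limma on log2(FPKM + 1).

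**Figure D1:**
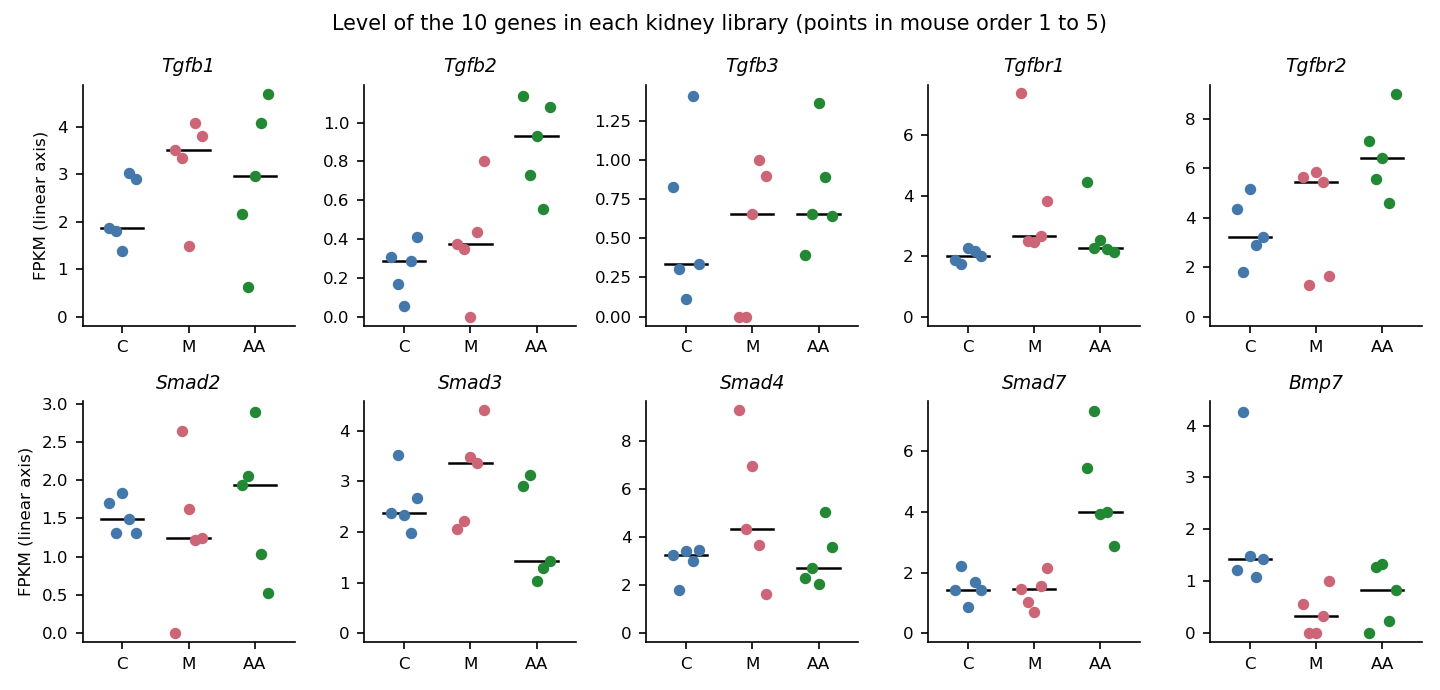
FPKM (linear axes, 1 scale a panel) of the 10 genes in the 5 libraries of each group, with points in mouse order from 1 to 5 and a line at the median. The 5 AA points of Smad7 lie between 2.88 and 7.33, above all C and M points, which lie between 0.684 and 2.22, while for most other genes the groups overlap.

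In M vs. C, 0 of the 10 members passed, where 1.38% of the 21153 genes tested did, and 0 passed the adjusted P alone, where 1.47% did. With limma, 1 member (Bmp7) had an unadjusted P under 0.05 there, and limma voom on recovered fragments called 0. In AA vs. M, 1 member passed (Smad7, higher in AA), against a background of 12.8% of 19798 genes in either direction and 11.7% higher in AA, and it was also the only member under the adjusted P alone, where 17.8% of all genes were. In AA vs. C, 1 member passed (again Smad7), against 19.8% of 21898 genes in either direction and 10.2% higher in AA, and 3 members (Smad7, Tgfb2 and Tgfbr2) were under the adjusted P alone, where 35.9% of all genes were. The share of members that passed was not above the background in any comparison. The groups did not overlap for Tgfbr1 (M higher) and Bmp7 (M lower) in M vs. C, where 4.72% of all genes were free of overlap, for Smad7 in AA vs. M, where 13.2% were, and for Smad7 and Tgfb2 (both higher in AA) in AA vs. C, where 24.0% were. The median log2 fold change of the members was 0.09 in M vs. C, 0.26 in AA vs. M and 0.19 in AA vs. C, and that of all genes tested was -0.12, 0.17 and 0.09. AA vs. M and M vs. C share the M libraries, and AA vs. C shares libraries with both, so these lists are not independent of each other.

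**Figure D2:**
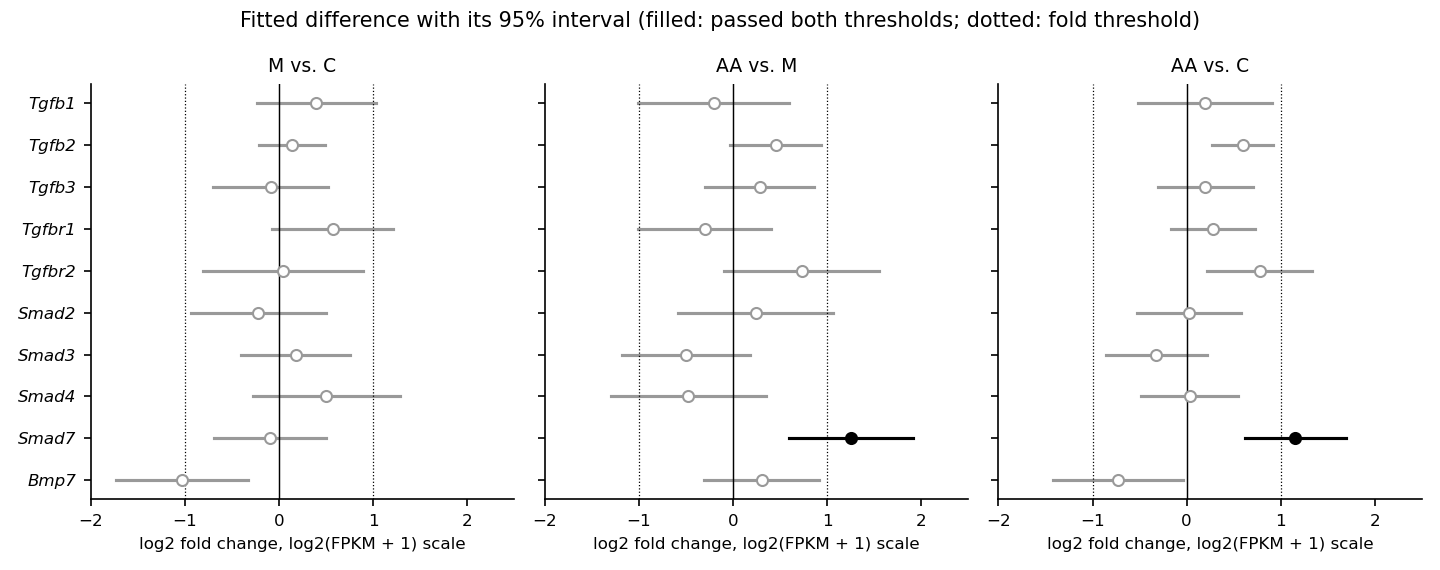
Fitted log2 fold change of each member on the log2(FPKM + 1) scale with its 95% interval in the 3 comparisons, filled where both thresholds were passed and with dotted lines at a log2 fold change of 1 and -1. Smad7 is filled in AA vs. M (1.25) and AA vs. C (1.16), and the interval of Bmp7 in M vs. C (-1.73 to -0.33) lies below 0 although it is not filled.

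Of the ligands, Tgfb1, the form most often tied to renal fibrosis, did not pass in any comparison. Its levels were 1.86, 1.80, 1.39, 3.02 and 2.91 FPKM in C, 3.52, 3.34, 1.49, 4.08 and 3.81 in M and 2.16, 0.616, 2.97, 4.09 and 4.69 in AA. In M, 4 libraries were above all C libraries and M mouse 3 was within them, and AA held both the lowest and the highest value of all 15. Mean levels were 2.20 ± 0.72 FPKM (SD, n = 5) in C, 3.25 ± 1.02 in M and 2.90 ± 1.61 in AA. The log2 fold change in M vs. C was 0.40 with a 95% interval of -0.23 to 1.03 (limma adjusted P = 0.520), and in AA vs. M it was -0.21 with an interval of -1.01 to 0.60 (adjusted P = 0.751), so a rise of 1 on the log2 scale with adenine and a fall of 1 with AA both lay within the intervals. Scaled to an equal total (TPM), M vs. C was -0.33, while the median of all genes moved from -0.12 to -0.58.

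Tgfb2 was low in all groups and highest in AA. It was at 0.306, 0.168, 0.0572, 0.286 and 0.413 FPKM in C, at 0.372, 0.347, 0, 0.436 and 0.802 in M, where the 0 of M mouse 3 is a listed value, and at 1.14, 0.728, 0.932, 0.554 and 1.08 in AA. All 5 AA libraries were above all 5 C libraries, and AA mice 2 and 4 fell below the highest M library. AA vs. C gave a log2 fold change of 0.60 (SE 0.15, adjusted P = 0.0098), which was under the fold threshold. With a pseudocount of 0.1 the same comparison gave 1.58 (adjusted P = 0.0155) and passed, most of these levels being below the pseudocount of 1. AA vs. M gave 0.45 (adjusted P = 0.179) and M vs. C 0.14 (adjusted P = 0.678). The fragments behind these values were few, 22 to 80 in C, 0 to 145 in M and 38 to 101 in AA, as recovered from the steps between FPKM values.

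Tgfb3 showed no ordering of the groups. It was listed at 0 in M mice 1 and 2 and was at 0.653, 0.998 and 0.900 FPKM in M mice 3 to 5, between 0.111 and 1.41 in C and between 0.391 and 1.36 in AA. No comparison passed, the adjusted P being 0.883 in M vs. C, 0.501 in AA vs. M and 0.525 in AA vs. C. Of its 31-base words, 9.96% also occur in other genes, chiefly the noncoding Gm48008 on the opposite strand, which overlaps it together with Ttll5 and Gm37804, and Tgfb2 overlaps Gm29491 and Gm26169 on the opposite strand. Whether reads were counted by strand is not given in the sources used here, so in the overlapping stretches reads of these 2 ligands cannot be told apart from those of the other gene.

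The promoters of the ligand and the receptor that were under the adjusted P in AA vs. C are shown beside that of Tgfb1, which was not, so that their 250 bases before the start of transcription can be compared. They are RefSeq sequences of GRCm38.p6, written 5′ to 3′ on the strand of the gene, and capitals mark CAGAC, the letters known as the core of Smad binding elements, or its reverse complement GTCTG.
Tgfb1, chr7:25686752-25687001, plus strand: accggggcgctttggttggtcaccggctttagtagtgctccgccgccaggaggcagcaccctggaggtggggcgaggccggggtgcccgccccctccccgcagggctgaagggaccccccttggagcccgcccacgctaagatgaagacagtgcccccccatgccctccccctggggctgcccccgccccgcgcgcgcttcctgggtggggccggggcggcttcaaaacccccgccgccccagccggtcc
Tgfb2, chr1:186705990-186706239, minus strand: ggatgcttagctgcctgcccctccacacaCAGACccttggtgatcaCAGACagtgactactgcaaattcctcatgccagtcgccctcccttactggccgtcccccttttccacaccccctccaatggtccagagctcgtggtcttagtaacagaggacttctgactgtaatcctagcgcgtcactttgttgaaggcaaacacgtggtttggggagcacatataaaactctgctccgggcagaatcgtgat
Tgfbr2, chr9:116175364-116175613, minus strand: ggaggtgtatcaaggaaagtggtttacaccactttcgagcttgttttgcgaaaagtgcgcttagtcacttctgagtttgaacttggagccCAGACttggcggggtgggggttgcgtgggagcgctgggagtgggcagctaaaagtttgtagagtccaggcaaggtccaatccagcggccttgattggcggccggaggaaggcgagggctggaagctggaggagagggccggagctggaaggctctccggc
Tgfb1 held 0 such words in a window with 75.2% G and C, Tgfb2 held 2 with 53.6% and Tgfbr2 held 1 with 58.4%. Among 32851 promoters of the same length, 42.2% held at least 1, so their presence is common, and a match in letters is a description and not a site of binding. RefSeq promoters were matched for 5 of the 10 members.

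Of the receptors, Tgfbr1 was higher in every M library than in every C library, without passing the test. It was between 1.74 and 2.26 FPKM in C, at 7.39, 2.49, 2.46, 2.66 and 3.81 in M and at 4.46, 2.26, 2.54, 2.23 and 2.14 in AA. M mouse 1 and AA mouse 1 were far above the rest of their groups, and the lowest M library (2.46) was close to the highest C library (2.26). The log2 fold change in M vs. C was 0.57 with a 95% interval of -0.07 to 1.21 (adjusted P = 0.354), and in AA vs. M it was -0.30 (adjusted P = 0.577). AA lay between C and M by its median of 2.26 FPKM, against 2.01 and 2.66, and did not differ from either beyond the spread.

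Tgfbr2 was highest in AA, with values of 7.10, 5.57, 6.43, 4.59 and 9.0 FPKM, against 4.35, 1.79, 5.18, 2.90 and 3.21 in C and 5.66, 1.26, 5.86, 5.46 and 1.64 in M. The M libraries fell into a low pair (1.26 and 1.64) and 3 higher libraries (5.46 to 5.86), a split that did not follow the split into M mice 1 to 3 and 4 and 5. Means were 3.49 ± 1.31 FPKM in C, 3.98 ± 2.31 in M and 6.54 ± 1.67 in AA (SD, n = 5). AA vs. C gave a log2 fold change of 0.77 (SE 0.26, adjusted P = 0.0331), under the fold threshold, and AA mouse 4 lay below the highest C library. AA vs. M gave 0.73 with a 95% interval of -0.09 to 1.55 (adjusted P = 0.208). With TPM, AA vs. C turned to -0.14 (adjusted P = 0.799), where the median of all genes moved from 0.09 to -0.39.

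Smad2, Smad3 and Smad4, which carry the signal to the nucleus, did not pass in any comparison. Smad2 was between 1.31 and 1.83 FPKM in C, between 0.525 and 2.89 in AA, and in M it was listed at 0 in mouse 1 and lay between 1.22 and 2.64 in the others. Its log2 fold change was -0.22 in M vs. C (adjusted P = 0.755), 0.24 in AA vs. M (adjusted P = 0.707) and 0.02 in AA vs. C (adjusted P = 0.954). The spread within M and AA exceeded the differences between groups.

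Smad3 had its 3 lowest values in AA mice 3 to 5, at 1.03, 1.28 and 1.43 FPKM, while AA mice 1 and 2 were at 2.91 and 3.12. C held 2.38, 3.52, 2.34, 1.97 and 2.68 and M held 2.05, 2.21, 3.48, 3.36 and 4.42, so all groups overlapped. AA vs. M gave a log2 fold change of -0.50 with a 95% interval of -1.18 to 0.18 (adjusted P = 0.298). It passed only when each library was centred on its median (-1.02, adjusted P = 0.0360), and AA vs. C, at -0.32 (adjusted P = 0.322), passed only with TPM (-1.26, adjusted P = 0.0058). Both differences were below 0 under all alternatives run.

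Smad4, the partner that both branches of the family share, was at 9.26, 4.33, 6.94, 3.67 and 1.61 FPKM in M, between 1.80 and 3.44 in C and between 2.05 and 5.04 in AA. In M, 4 libraries were above all C libraries and M mouse 5 was below them. Means were 2.97 ± 0.68 in C, 5.16 ± 2.98 in M and 3.13 ± 1.21 in AA (SD, n = 5), so the spread in M was as large as its distance from C. M vs. C gave 0.50 with a 95% interval of -0.28 to 1.29 (adjusted P = 0.515) and AA vs. M gave -0.47 with an interval of -1.29 to 0.35 (adjusted P = 0.427). With M mice 4 and 5 alone, both differences changed sign, to -0.17 and 0.20.

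Smad7, the inhibitory Smad, was the member that rose. Its level was 5.44, 7.33, 3.94, 4.01 and 2.88 FPKM in AA, against 1.41, 2.22, 0.859, 1.69 and 1.42 in C and 1.45, 1.02, 0.684, 1.56 and 2.14 in M. All 5 AA libraries were above all 10 libraries of the other groups, and C and M overlapped throughout. The mean was 4.72 ± 1.72 FPKM in AA (SD, n = 5), which was 3.45 times that of M (1.37 ± 0.55) and 3.11 times that of C (1.52 ± 0.49). The gene lies at chr18:75367529-75395935 of GRCm38 on the plus strand, and none of its 31-base words occurs in another gene.

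On the log2(FPKM + 1) scale, Smad7 in AA vs. M differed by 1.25 (SE 0.31, 95% interval 0.59 to 1.92, limma adjusted P = 0.0140), and in AA vs. C by 1.16 (SE 0.24, 95% interval 0.62 to 1.69, adjusted P = 0.0043). M vs. C was -0.10 with an interval of -0.69 to 0.50 (adjusted P = 0.868). Leaving out each library in turn kept the call in 10 of 10 fits of both comparisons, with differences of 1.11 to 1.38 in AA vs. M and 1.01 to 1.28 in AA vs. C. Of 14 other ways of processing, 8 kept the call in AA vs. M, and of 11 others 10 kept it in AA vs. C. Against M mice 4 and 5 alone the difference was 0.96 (adjusted P = 0.114), and without M mice 2 and 3, whose Xist went against the label, it was 1.03 (adjusted P = 0.0849). With TPM it was 1.19 (adjusted P = 0.151) in AA vs. M and 0.43 (adjusted P = 0.276) in AA vs. C. Relative to the median of all genes tested, which moves with the scaling, Smad7 was higher by 0.79 to 1.18 in AA vs. M and by 0.82 to 1.41 in AA vs. C over 6 scalings.

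The fragments behind Smad7 were 334, 299, 267, 373 and 210 in AA, 204 to 403 in C and 42 to 302 in M. The number of fragments on Smad7 was thus similar in AA and C, while the fragments outside the mitochondrial genome were fewer in AA (2230000 to 4270000) than in C (6930000 to 13600000). The higher FPKM in AA is a higher share of the fragments outside the mitochondrial genome. With TPM, which divides each FPKM by the FPKM total of its library, the difference from C did not pass, as given above. The share of all fragments was not tested.

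**Figure D3:**
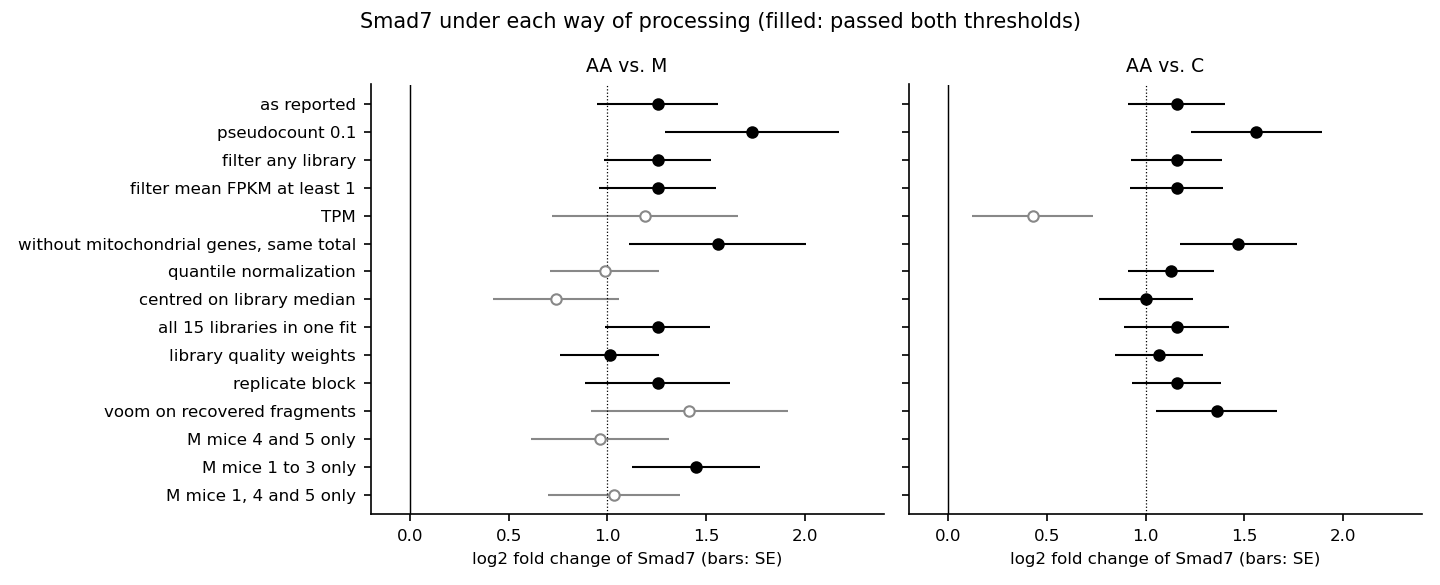
Log2 fold change of Smad7 (horizontal axis, bars of 1 SE) in AA vs. M and AA vs. C as reported and under each other way of processing, filled where both thresholds were passed. All points lie above 0, between 0.74 and 1.73 in AA vs. M and between 0.43 and 1.56 in AA vs. C, and the unfilled points include TPM in both panels.

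Smad7 is made by many kidney cell types, and markers of these types were set beside it. Summed FPKM of 7 fibroblast and pericyte markers was 178 to 309 in AA, 36.0 to 82.9 in C and 73.6 to 292 in M. The sum of 8 macrophage markers was 101 to 151 in AA, 17.3 to 106 in C and 143 to 409 in M, and the sum of 8 proximal tubule markers was 157 to 541 in AA, 3023 to 12510 in C and 85.4 to 538 in M. None of these lists had a gene at 0 in all libraries of a group. Single genes weighed heavily in the sums: Kap was at 2780 to 10500 FPKM in C and Lyz2 at 60.5 to 307 in M. Of the 8 macrophage markers, 7 were above 0 in M vs. C and 1 below. Csf1r was lower, with means of 10.3 FPKM in C, 4.93 in M and 3.01 in AA. The fibroblast sums overlapped between M and AA, while 1 of the 7 genes, Pdgfra, named after its values were seen, did not (3.58 to 18.3 FPKM in M and 19.0 to 27.9 in AA). Of the 7 genes, 1 passed as higher in AA vs. M, where 11.7% of all genes did. The part of cell makeup in the Smad7 difference was not tested, and in whole kidney fewer cells of a type and less RNA per cell cannot be told apart.

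Bmp7, the ligand that opposes fibrosis, was lower in every M library than in every C library, without passing the test. It was at 1.21, 4.26, 1.49, 1.09 and 1.43 FPKM in C and at 0.557, 0, 0, 0.322 and 1.00 in M, where M mice 2 and 3 were listed at 0. In AA it was at 0, 1.27, 1.33, 0.230 and 0.834, with AA mouse 1 listed at 0. C mouse 2 was far above the other 4 C libraries, and the highest M library was just below the lowest C library. AA spanned both groups, with 2 libraries in the range of C and 3 below it.

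The log2 fold change of Bmp7 in M vs. C was -1.03 (SE 0.32, 95% interval -1.73 to -0.33), with an unadjusted P of 0.0073 from limma and an adjusted P of 0.142, so it missed the threshold on the adjusted P. It passed with TPM (-1.81, adjusted P = 0.0340) and with M mice 1 to 3 alone (-1.23, adjusted P = 0.0250), and with M mice 1, 4 and 5 it was -0.76 (adjusted P = 0.530). AA vs. M gave 0.31 with an interval of -0.31 to 0.92 (adjusted P = 0.498), and AA vs. C gave -0.72 with an interval of -1.42 to -0.03 (adjusted P = 0.0926). Fragments were 148 to 689 in C, 0 to 126 in M and 0 to 80 in AA. In M vs. C the summed proximal tubule markers were lower, as Bmp7 was. They were at 3023 to 12510 FPKM in C and 85.4 to 538 in M, 6 of 8 passing as lower. In AA that sum was 157 to 541, below all C libraries, while Bmp7 in AA mice 2 and 3 (1.27 and 1.33 FPKM) was within the range of C. The summed collecting duct markers (6 genes) were 33.0 to 451 in C and 4.03 to 24.4 in M, and 7.47 to 18.7 in AA, where 1 of them was at 0 in all libraries. Aqp2 alone was at 20.6 to 437 FPKM in C and 1.38 to 7.45 in M, so it weighed heavily in the sum in C. Of 5 collecting duct genes tested in M vs. C, 1 passed as lower. The part of tubule cells in the Bmp7 values was not tested.

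Differences of log2(FPKM + 1) between a pair of members within a library were computed without a test, as the pairs were chosen with results known. At these low levels the differences depend on the scaling through the pseudocount of 1. Without mitochondrial genes, M vs. C moved from -1.03 to -2.46 for Bmp7 and from 0.40 to 0.61 for Tgfb1. Where a member was listed at 0, the difference holds only the level of the other member. Smad7 minus Smad3, the inhibitor against the Smad it opposes, was -0.51 ± 0.25 in C, -0.79 ± 0.40 in M and 0.96 ± 0.26 in AA (log2, SD, n = 5). It was below 0 in all 10 C and M libraries and between 0.67 and 1.28 in the 5 AA libraries. Smad7 alone already separated the same libraries, so this separation adds no evidence of its own. Smad7 minus Tgfb1 was less regular, at -0.34 ± 0.35 in C, -0.83 ± 0.23 in M and 0.63 ± 1.13 in AA, with AA between -0.55 and 2.37.

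Bmp7 minus Tgfb1 was between -0.94 and 0.91 in C and between -2.12 and -1.26 in M. These 2 groups did not overlap, as they already did not for Bmp7 alone. Bmp7 was listed at 0 in M mice 2 and 3 and AA mouse 1. In AA the difference ran from -2.05 to 0.49. AA mouse 2 was among the C libraries, AA mouse 3 also within their range, and AA mice 1, 4 and 5 within the range of M. Tgfb1 minus Tgfb2 ran from 1.13 to 1.64 in C, 1.32 to 1.82 in M and -0.10 to 1.71 in AA. Tgfb1 minus Tgfb3 ran from 0.64 to 1.55 in C, 0.59 to 2.18 in M and -0.04 to 1.79 in AA, so both overlapped between all groups.

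**Figure D4:**
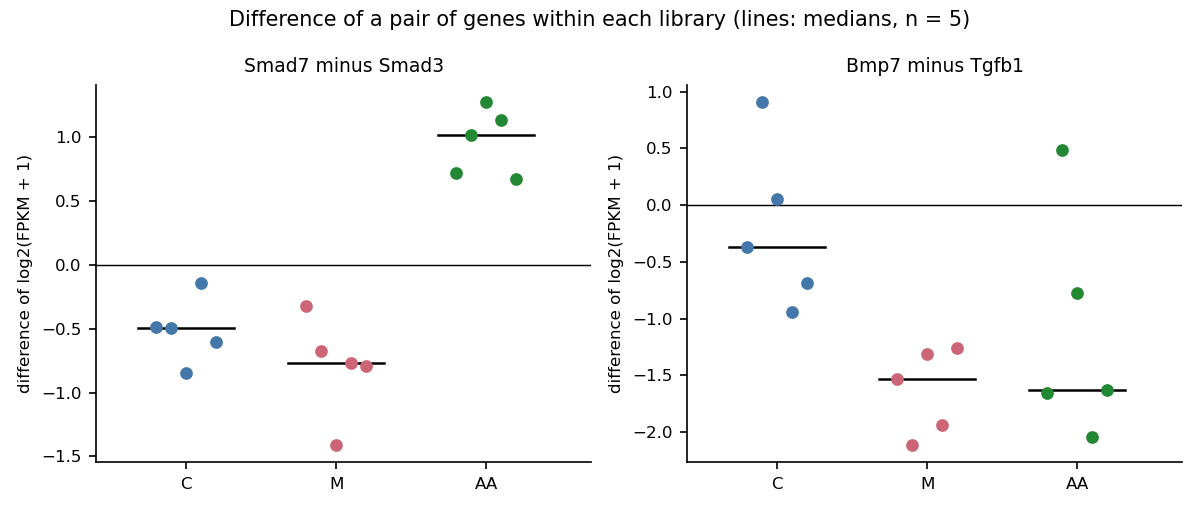
Difference of log2(FPKM + 1) between a pair of members in each library, with a line at the median of the 5 libraries of a group. For Smad7 minus Smad3 the AA libraries lie between 0.67 and 1.28 and all others below 0, and for Bmp7 minus Tgfb1 the M libraries lie below -1.26 and AA spreads over both other groups.

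Around the members, 95 further genes of the pathway in 6 lists were followed with the same fits. In M vs. C 2 of 90 tested passed, both higher (background 1.38%), in AA vs. M 6 were higher and 1 lower of 87 (12.8%), and in AA vs. C 13 were higher and 2 lower of 91 (19.8%). Their median log2 fold changes were 0.10, 0.21 and 0.34, against -0.12, 0.17 and 0.09 over all genes. The counts in AA vs. M depended on single libraries: 1 gene passed without M mouse 2, M mouse 3 or AA mouse 1, 2 without AA mouse 3 or AA mouse 5, 3 without AA mouse 2 or AA mouse 4, and 4 without M mouse 5. In M vs. C, 0 passed without C mouse 2, C mouse 5, M mouse 2 or M mouse 3, 1 without C mouse 3, C mouse 4 or M mouse 1, and 5 without M mouse 5. Without both M mice 2 and 3, 0 of these genes passed in either comparison with M by limma, 17 having an unadjusted P under 0.05 in M vs. C and 12 having one in AA vs. M.

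The TGF-beta activation list holds proteins that store the latent ligand or release it. In AA vs. M, 3 of 14 passed, all higher: Ltbp4, a latent TGF-beta binding protein (1.41, adjusted P = 0.0314), Fbn1, the fibrillin of microfibrils (1.36, adjusted P = 0.0462), and Itgb6, the integrin chain that activates the latent ligand on epithelium (1.05, adjusted P = 0.0224). Itgb6 was at 2.68 to 4.50 FPKM in AA and at 0.538 to 1.96 in M. Without M mice 2 and 3 these were 1.08, 1.29 and 0.90, with adjusted P values of 0.147, 0.125 and 0.0951. In AA vs. C, Mmp2, a gelatinase (1.89, adjusted P = 4.4e-04), and Fbn1 (1.53, adjusted P = 0.0033) passed, and in M vs. C none of the 14 did by limma, 2 having an unadjusted P under 0.05 and voom calling 0, the smallest P being that of Ltbp2, another latent TGF-beta binding protein (1.06, adjusted P = 0.223).

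Of 12 genes listed as other ligands of the family, 10 were tested in M vs. C, 9 in AA vs. M and 10 in AA vs. C. Only 1 passed: Inhba, the activin A subunit, in AA vs. C (1.12, adjusted P = 0.0061), at 0.712 to 3.52 FPKM in AA and at most 0.307 in C. In the other comparisons none passed by limma, with an unadjusted P under 0.05 in 3 and 2 genes and voom calls of 0 and 1, and the smallest P belonged to Inhbb, another activin subunit, in M vs. C (0.71, adjusted P = 0.191), and to Bmp3 in AA vs. M (0.58, adjusted P = 0.0185), which was listed at 0 in M mice 1 to 3 and under the fold threshold. Among the 13 other receptors and coreceptors, Acvr1b, a type I activin receptor, was lower in AA vs. C (-1.04, adjusted P = 0.0062), with 0.682 to 1.51 FPKM in AA and 2.51 to 5.91 in C. None passed in M vs. C or AA vs. M by limma, with an unadjusted P under 0.05 in 2 and 4 genes and voom calls of 0 and 1, and the smallest P values were those of Rgmb, a BMP coreceptor, in M vs. C (0.87, adjusted P = 0.232) and Acvr2b in AA vs. M (1.02, adjusted P = 0.0654).

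Of the 20 other Smads and Smad regulators, 1 passed: Pmepa1, a target of TGF-beta that dampens its signal, in AA vs. C (1.04, adjusted P = 0.0052), with 4.38 to 10.3 FPKM in AA and 2.41 to 3.07 in C. In M vs. C and AA vs. M none passed by limma, with an unadjusted P under 0.05 in 1 and 0 genes and no call by voom. In AA vs. M it was at 0.76 (adjusted P = 0.244), and -0.06 with M mice 4 and 5 alone. Nedd4l, a ubiquitin ligase of activated Smads, had the smallest P in M vs. C (-1.39, adjusted P = 0.111), with 0.415 to 0.623 FPKM in M mice 1 to 3, 2.74 and 3.26 in M mice 4 and 5, and 3.50 to 9.30 in C. Smad6, the other inhibitory Smad, looked up after the values were seen, was at 0.37 in AA vs. M (adjusted P = 0.453) and 0.13 in AA vs. C (adjusted P = 0.754), so it did not pass where Smad7 did.

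Of the 16 extracellular antagonists, none passed in M vs. C by limma (an unadjusted P under 0.05 in 5, and 1 called by voom) and 4 passed in AA vs. C, all higher: Dcn and Bgn, small proteoglycans that bind TGF-beta (2.00 and 1.58, adjusted P = 9.3e-04 and 0.0024), Fstl1 (1.58, adjusted P = 0.0021) and Grem1, a BMP antagonist (1.04, adjusted P = 0.0031), the last named outside the rule. Grem1 in M vs. C was at 0.67 (adjusted P = 0.0505), with 0.692 to 1.07 FPKM in M and at most 0.210 in C. In AA vs. M, Twsg1, a secreted BMP modulator, passed (1.04, adjusted P = 0.0484). Dcn and Col1a1 also belong to the fibroblast list, whose sums are given above. Of its 7 genes, 5 passed as higher in AA vs. C, where 10.2% of all genes did. In AA vs. M 1 passed as higher, where 11.7% of all genes did. The part of fibroblast number in these counts was not tested.

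Of the 20 response genes, whose RNA TGF-beta or BMP signals are known to raise or lower, 2 passed in M vs. C: Vim, the filament protein of mesenchymal cells (2.35, adjusted P = 0.0287), and Col3a1, a fibrillar collagen (2.08, adjusted P = 0.0296). Vim was at 36.8, 107, 77.5, 18.8 and 23.9 FPKM in M, 5.27 to 11.6 in C and 11.3 to 19.7 in AA, and it fell in AA vs. M by 1.56 (adjusted P = 0.0297). Col3a1 was at 57.8, 51.1, 75.3, 81.0 and 18.4 in M, 7.52 to 18.6 in C and 45.6 to 88.4 in AA, so it was about as high in AA as in 4 of the M libraries (0.39, adjusted P = 0.551). Col1a1 (1.45, adjusted P = 0.0433) and the collagen crosslinker Loxl2 (1.34, adjusted P = 0.0455) rose in AA vs. M, where Col1a1 was at 68.9 to 142 FPKM in AA and at 23.8, 19.9, 29.9, 126 and 33.2 in M. Without M mice 2 and 3 the differences in AA vs. M were -0.84 for Vim, 1.09 for Col1a1 and 0.78 for Loxl2, with adjusted P values of 0.153, 0.203 and 0.220, and Vim and Col3a1 in M vs. C were at 1.64 and 1.89 with adjusted P values of 0.153 and 0.195.

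In AA vs. C, 5 response genes were higher and 1 lower. The largest were Col1a1 (2.49, adjusted P = 1.7e-04), Col3a1 (2.47, adjusted P = 2.1e-04) and Col1a2 (1.91, adjusted P = 0.0011), with Fn1 (1.56) and Loxl2 (1.65) besides, and the lower gene was Id1, a target of BMP signals (-1.62, adjusted P = 0.0149), Fn1, Loxl2 and Id1 being named after their values were seen. Id1 was at 0.760 to 6.10 FPKM in AA and 5.07 to 20.3 in C. Id2, Id3 and Id4 of the same list did not pass and had higher means in AA than in C. Their means in AA and C were 11.8 and 9.69 FPKM (Id2), 23.1 and 16.4 (Id3) and 2.82 and 2.05 (Id4). Ccn2, a target often read as a measure of TGF-beta activity and looked up after its values were seen, did not pass: its difference in AA vs. M was -0.31 and in AA vs. C 0.21. Acta2, a marker of myofibroblasts, was at -0.33 in M vs. C, while its value in AA vs. M was -0.16, with adjusted P values of 0.710 and 0.820. Over the whole list, 11 response genes were above 0 and 9 below in AA vs. M. Their median was 0.07, against 0.17 over all genes. In M vs. C, 16 were above 0 and 4 below, with a median of 0.57 against -0.12. In AA vs. C, 18 were above 0 and 2 below, with a median of 0.66 against 0.09.

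**Figure D5:**
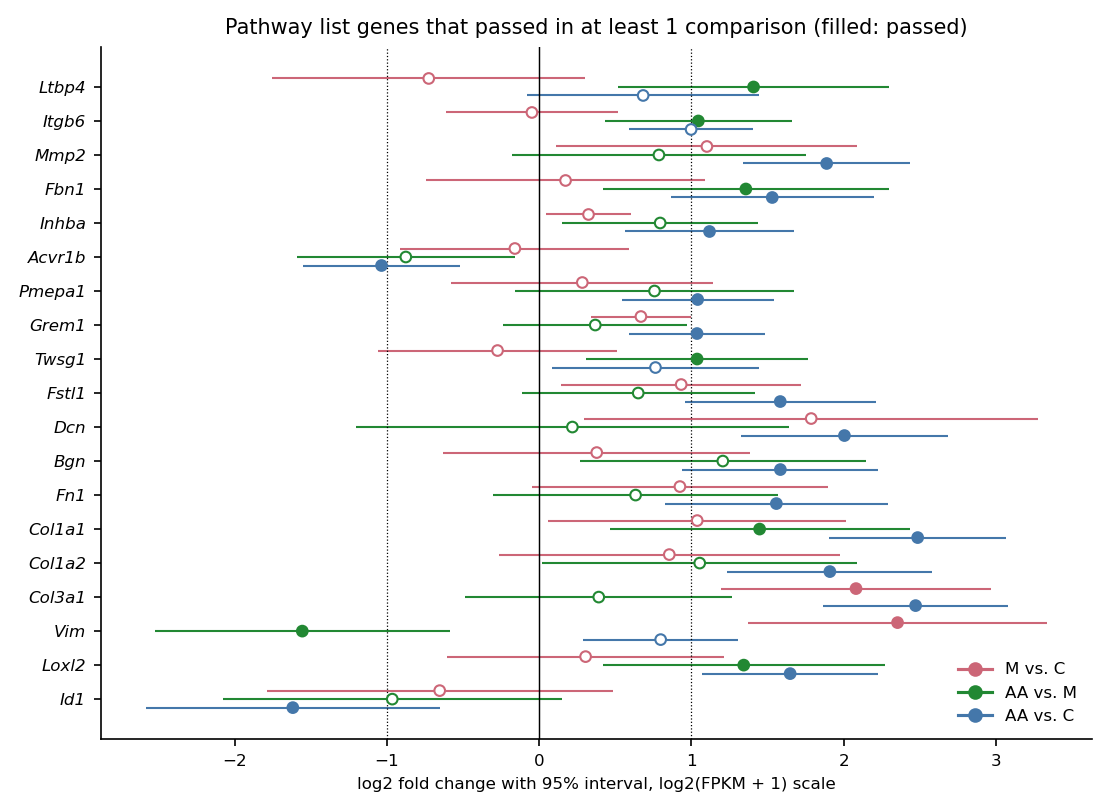
Log2 fold change with its 95% interval of the 19 pathway list genes that passed in at least 1 comparison, filled where they passed. Most filled points are AA vs. C (15 genes), Vim is filled to the right in M vs. C (2.35) and to the left in AA vs. M (-1.56), and Acvr1b and Id1 are filled to the left in AA vs. C.

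The other cell type lists moved as follows. Of the loop of Henle and distal tubule list 1 of 6 was lower in M vs. C and 2 were lower in AA vs. C, with sums of 64.3 to 212 FPKM in C, 23.4 to 87.2 in M and 38.8 to 63.6 in AA. Podocyte markers summed to 5.71 to 17.2 in C, 3.56 to 26.2 in M and 12.7 to 17.3 in AA. Endothelial markers summed to 17.8 to 35.4, 15.4 to 22.9 and 8.82 to 18.5. T and B cell markers summed to 1.47 to 22.0, 1.55 to 10.2 and 8.78 to 18.1, and platelet and red cell markers to 28.6 to 175, 15.7 to 41.5 and 7.33 to 33.9. Of the T and B cell genes, Cd3e and Cd3g were higher in AA in both comparisons, and 2 of 8 were at 0 in all AA libraries. The list did not move as 1: in AA vs. C 1 gene passed as lower, with 4 genes above 0 and 4 below. In AA vs. M 5 of the list were tested, 3 being above 0 and 2 below. Of 8 housekeeping genes, Gapdh alone passed, lower in AA vs. C.

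The genes nearest to Tgfb1 in profile were sought among 6141 genes by the root mean square difference of centred log2(FPKM + 1) over the 15 libraries. They were Tollip (0.32), Mtch1 (0.32), Raly (0.32), Ier5 (0.34) and Acvrl1 (0.34), against a root mean square of 0.49 for Tgfb1 around its own mean. For Bmp7, among 7578 genes, they were Rufy3 (0.31), Sars2 (0.32), Slc46a3 (0.33), Qprt (0.33) and the noncoding Gm10732 (0.33), against 0.63 for Bmp7 itself. All profiles share the libraries and their scaling, so the likeness is a description over these 15 libraries.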

How the data were processed

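Poly-A RNA of 15 mouse kidneys, 5 per group (C, M and AA), was sequenced in paired ends on an Illumina NovaSeq. The authors trimmed reads (fastp), aligned them to mm10 with HISAT2 2.0.5, counted genes with featureCounts 1.5.0-p3 and deposited FPKM values, 1 per gene and kidney. Their DESeq2 test used counts that were not analysed here, so limma took its place. The FPKM columns sum to totals of 263859 to 1481920. From gene lengths in GENCODE M21 (GRCm38, lacking 37 of the 54532 genes), 98.0 to 99.0% of low values per library were whole multiples (tolerance 0.05) of 1 fragment, which gave 13600000 to 28900000 fragments on genes. The divisor behind FPKM was 1.01 to 1.10 times that predicted from median-of-ratios size factors over 7206 genes and 0.518 to 2.30 times the fragments of the library, so the deposited FPKM were treated as already scaled by size factors. No counting interval was derived from recovered fragments.

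Groups and mouse numbers came from the labels. Each comparison used limma 3.58.1 in R 4.3.3 (lmFit, eBayes with trend) on log2(FPKM + 1) of its 10 libraries, for genes above 0 in at least 5, with Benjamini-Hochberg adjustment over all genes tested, and calls at an adjusted p of at most 0.05 and an absolute log2 fold change of at least 1. The fit was tested on simulated data. Tables and figures used matplotlib 3.10.9, scipy 1.17.1, numpy 2.4.6 and pandas 2.3.3 in Python 3.11.15.

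The members, the 6 pathway lists, the cell type and housekeeping lists and the tests were chosen with earlier results of these data known. Named are all 10 members, the up to 3 called genes of each list and comparison with the largest fold change or else the gene with the smallest p, and the 5 genes nearest in profile to Tgfb1 and Bmp7. Any other gene was chosen after its values were seen. Alternatives were pseudocount 0.1, filters (any library above 0, or a mean FPKM of at least 1), TPM, removal of mitochondrial genes, quantile normalization, median centring, all 15 libraries in 1 fit, library quality weights, a replicate block, voom on recovered fragments, M mice 4 and 5 or 1 to 3 alone, and each library left out. M mice 1, 4 and 5 alone were added after seeing the data.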

Additional observations from a re-analysis of the deposited data

Results flagged for a closer look

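In the 30 sets of 5 libraries (10 members in 3 groups), 5 held a library far from the other 4, by Dixon's ratio of its gap to the range at a critical value of 0.71, and chance alone flags about 1 set in 20. Tgfb1 was low in M mouse 3 (1.49 FPKM), where the other M libraries held 3.34 to 4.08. Tgfbr1 was high in M mouse 1 (7.39 FPKM) and in AA mouse 1 (4.46 FPKM), where the next libraries held 3.81 and 2.54. Smad4 was low in C mouse 2 (1.80 FPKM), where the other C libraries held 3.01 to 3.44. Bmp7 was high in C mouse 2 (4.26 FPKM), where the other C libraries held 1.09 to 1.49, and without that library Bmp7 in M vs. C was -0.79 on the log2 scale. M mice 1 and 3 belong to the 3 M libraries with few detected genes, and the part of this in their values was not tested.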

How the results depend on the processing

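The call of Smad7 was the only one among the members as reported, and the number of members called changed as follows. In M vs. C it went from 0 to 1 (Bmp7) with TPM and with M mice 1 to 3 alone. In AA vs. M it went from 1 to 0 with TPM, quantile normalization, voom, M mice 4 and 5 alone and M mice 1, 4 and 5 alone, and with median centring 1 member was called, Smad3 in place of Smad7. In AA vs. C it went from 1 to 2 with pseudocount 0.1, with TPM (Smad3 and Bmp7 in place of Smad7) and without mitochondrial genes, and to 3 with voom. Each library left out in turn gave 0 in M vs. C and 1 in the others.

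Pathway list genes called in M vs. C were 2 as reported, 0 with the filter on any library, M mice 4 and 5 alone and M mice 1, 4 and 5 alone, 5 with median centring and 10 with M mice 1 to 3 alone, and 0 to 5 with each library left out. In AA vs. M they were 7 as reported, 1 with the filter on any library, 0 with TPM and M mice 1, 4 and 5 alone, 2 without mitochondrial genes, with quality weights and with M mice 4 and 5 alone, 3 with quantile normalization, 4 with median centring and 15 with M mice 1 to 3 alone, and 1 to 10 with each library left out. In AA vs. C they were 15 as reported, 25 with pseudocount 0.1, 26 without mitochondrial genes and 27 with voom, and 14 to 17 with each library left out. With the mouse number as a replicate block, the members called stayed at 0, 1 and 1, and the pathway list genes called were 0 in M vs. C, 2 in AA vs. M and 15 in AA vs. C. Deviations of same-numbered libraries from their group means correlated at -0.13 to 0.22, which was not compared with differently numbered libraries. Whether same-numbered libraries shared handling was not tested.

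Directions that turned belonged to differences that had not passed both thresholds, and the cause was not tested. Among them, Tgfbr2 in AA vs. C had been under the adjusted P alone (0.77, limma adjusted P = 0.0331). With TPM, M vs. C turned to -0.33 for Tgfb1, -0.0044 for Tgfb2, -0.18 for Tgfbr1, -0.84 for Tgfbr2, -0.61 for Smad3 and -0.37 for Smad4, and AA vs. C to -0.58 for Tgfb1, -0.19 for Tgfb3, -0.56 for Tgfbr1, -0.14 for Tgfbr2, -0.80 for Smad2 and -0.86 for Smad4. With quantile normalization, M vs. C turned to 0.0527 for Tgfb3 and 0.17 for Smad7, AA vs. M to -0.0334 for Tgfb3 and -0.0515 for Smad2, and AA vs. C to -0.11 for Smad2 and -0.0114 for Smad4. With median centring, M vs. C turned to 0.27 for Tgfb3, 0.14 for Smad2 and 0.26 for Smad7, AA vs. M to -0.0603 for Tgfb2, -0.23 for Tgfb3, -0.27 for Smad2 and -0.21 for Bmp7, and AA vs. C to -0.13 for Smad2 and -0.12 for Smad4. With quality weights, M vs. C turned to 0.17 for Tgfb3 and 0.0236 for Smad7 and AA vs. C to -0.0768 for Smad2. With voom, M vs. C turned to -0.12 for Tgfbr2 and AA vs. C to -0.39 for Smad2 and -0.16 for Smad4. Without mitochondrial genes, AA vs. C turned to -0.14 for Smad2 and -0.0633 for Smad4, and with pseudocount 0.1 to -0.0433 for Smad2. With M mice 4 and 5 alone, M vs. C turned to 0.34 for Tgfb3, -0.0673 for Tgfbr2, -0.17 for Smad4 and 0.19 for Smad7, and AA vs. M to -0.15 for Tgfb3, 0.20 for Smad4 and -0.0646 for Pmepa1. With M mice 1 to 3 alone, M vs. C turned to -0.0147 for Tgfb2 and -0.0056 for Smad3, and with M mice 1, 4 and 5 alone to 0.0229 for Tgfb3 and 0.12 for Smad7. Leaving out single libraries turned Smad2 (-0.41 to 0.0588 in M vs. C, -0.0373 to 0.43 in AA vs. M, -0.13 to 0.21 in AA vs. C), Smad4 in AA vs. C (-0.12 to 0.13), Smad7 (-0.21 to 0.0174), Tgfb3 (-0.21 to 0.0747) and Tgfbr2 (-0.11 to 0.29) in M vs. C, and Tgfb1 in AA vs. M (-0.39 to 0.0817).

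Over all genes, 291 were called in M vs. C, 2533 in AA vs. M and 4346 in AA vs. C as reported. In the same order TPM called 1609, 422 and 6785 and voom 640, 3448 and 7837, while in M vs. C 33 were called with the filter on any library, 3404 with M mice 1 to 3 alone and 0 with M mice 4 and 5 alone or M mice 1, 4 and 5 alone. Settings that leave out M mice give no value for AA vs. C. The share of calls that were higher was 19.6% in M vs. C, 91.6% in AA vs. M and 51.6% in AA vs. C as reported. It was 1.93%, 98.3% and 12.7% with TPM, 38.9%, 43.1% and 40.1% with median centring, and 69.5% in AA vs. M with quantile normalization. M mice 1 to 3 had 2070000 to 2770000 fragments outside the mitochondrial genome, and the part of depth in these counts was not tested.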
